A study of Homo sapiens with 4 samples.

Results

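The p53 target genes were followed in RNA-seq libraries of MCF10A cells, a human breast epithelial line that is immortal but does not form tumours. The WT group held 2 libraries of unmodified cells. The HSF1-pLVX group held 2 libraries of cells stably transduced with a lentivirus carrying the coding sequence of human HSF1, the master regulator of the heat shock response, in the pLVX-Puro plasmid, and selected with puromycin. All cells grew with horse serum, insulin, hydrocortisone, EGF and cholera toxin, the last of which the study's methods do not list. Whether the transduced cells were 1 clone or a pool is not given in the sources used here, and empty-vector cells were not analysed here, so the vector, its selection and HSF1 itself cannot be told apart. The gene list was fixed by symbol and holds 31 genes of the 63856 in the count table, all of which were found and passed the filter on low counts. The 31 genes were read in groups by role. There were 5 genes of cell cycle arrest, 5 of DNA repair and 5 of the death receptor group, a decoy among them. The others were 5 cell death effectors, 4 feedback genes, and 7 genes of redox balance, mitochondria and secreted signals.

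p53 is a transcription factor that is held at a low level by the ubiquitin ligase MDM2 and its relative MDM4 and is stabilized by DNA damage and other stress. It then switches on genes that stop the cell cycle, repair DNA, adjust redox metabolism or prepare cell death, and it switches on MDM2 itself, which closes a negative feedback loop. In mammary epithelium, its relative p63 marks the basal layer and binds many of the same sites. MCF10A cells are known to lack the CDKN2A locus, whose product ARF restrains MDM2.

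Libraries held between 18688109 and 24184285 counts, and levels are given in CPM, the counts scaled to a common library size with TMM factors. HSF1 was examined first as a check of the labels. It was at 200.1 and 189 CPM in the WT libraries and 981 and 997 CPM in the HSF1-pLVX libraries, a log2 fold change of 2.35 (standard error 0.10, adjusted p = 1.14e-10, edgeR's quasi-likelihood test, adjusted over all genes tested by the Benjamini-Hochberg procedure). The counts do not separate the introduced from the endogenous transcript. The summed level of 8 fibroblast markers was 199 and 227 CPM in WT and 59.8 and 48.8 in HSF1-pLVX cells, most of it FAP. Of the 3 fibroblast markers tested FAP fell (log2 fold change -2.35), DCN rose from 0.0532 and 0.161 to 3.74 and 4.37 CPM and COL1A1 did not pass the test, and COL1A2, LUM and THY1 held at most 2 counts in any library. Of 8 basal mammary epithelial markers 3 were higher and 4 lower, and of 7 luminal markers 1 was higher and 6 were lower. Among all genes tested, 32.7% were called higher and 33.2% lower. The part of these markers in the results for p53 target genes was not tested. The 6 endothelial and leukocyte markers summed to between 0.835 and 1.51 CPM.

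Of the 31 p53 target genes, 11 were higher in HSF1-pLVX cells and 14 lower at an adjusted p of 0.05, and 6 did not pass the test, so that 25 of 31 were called. Transcripts of the MDM2 and MDM4 feedback arm, of the damage recognition genes DDB2 and XPC, of SESN1 and SESN2 and of GDF15 rose. CDKN1A, the cell cycle inhibitor p21 and the most abundant member, fell to less than 0.5 of its level, and the fall of TP53I3 was larger. In bulk RNA, fewer cells with a transcript and less of it per cell cannot be told apart. Among all 15830 genes tested, 32.7% were called higher and 33.2% lower, 65.9% in either direction, against 35.5%, 45.2% and 80.6% of the 31. Changes of at least 2-fold were called upwards for 4 members (12.9%) and downwards for 5 (16.1%), where 14.9% and 14.0% of all genes tested were called. Without HSF1-pLVX replicate 2, 8 of 31 members (25.8%) and 23.2% of all genes tested were called lower. The median log2 fold change was -0.059 over the members and 0.019 over all genes tested. With library size as the only normalization the median of the members was 0.0029, and when single libraries were dropped it ranged between -0.15 and 0.032, so it has no stable sign. The WT and HSF1-pLVX libraries did not overlap for 26 members, 12 above and 14 below, a share of 83.9% against 83.1% of all genes tested, of which 42.1% lay above and 41.0% below. With 2 libraries in each group, the smallest p of an exact permutation test on 1 gene is 0.333, so every p given here comes from the model fitted across all genes.

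**Figure D1:**
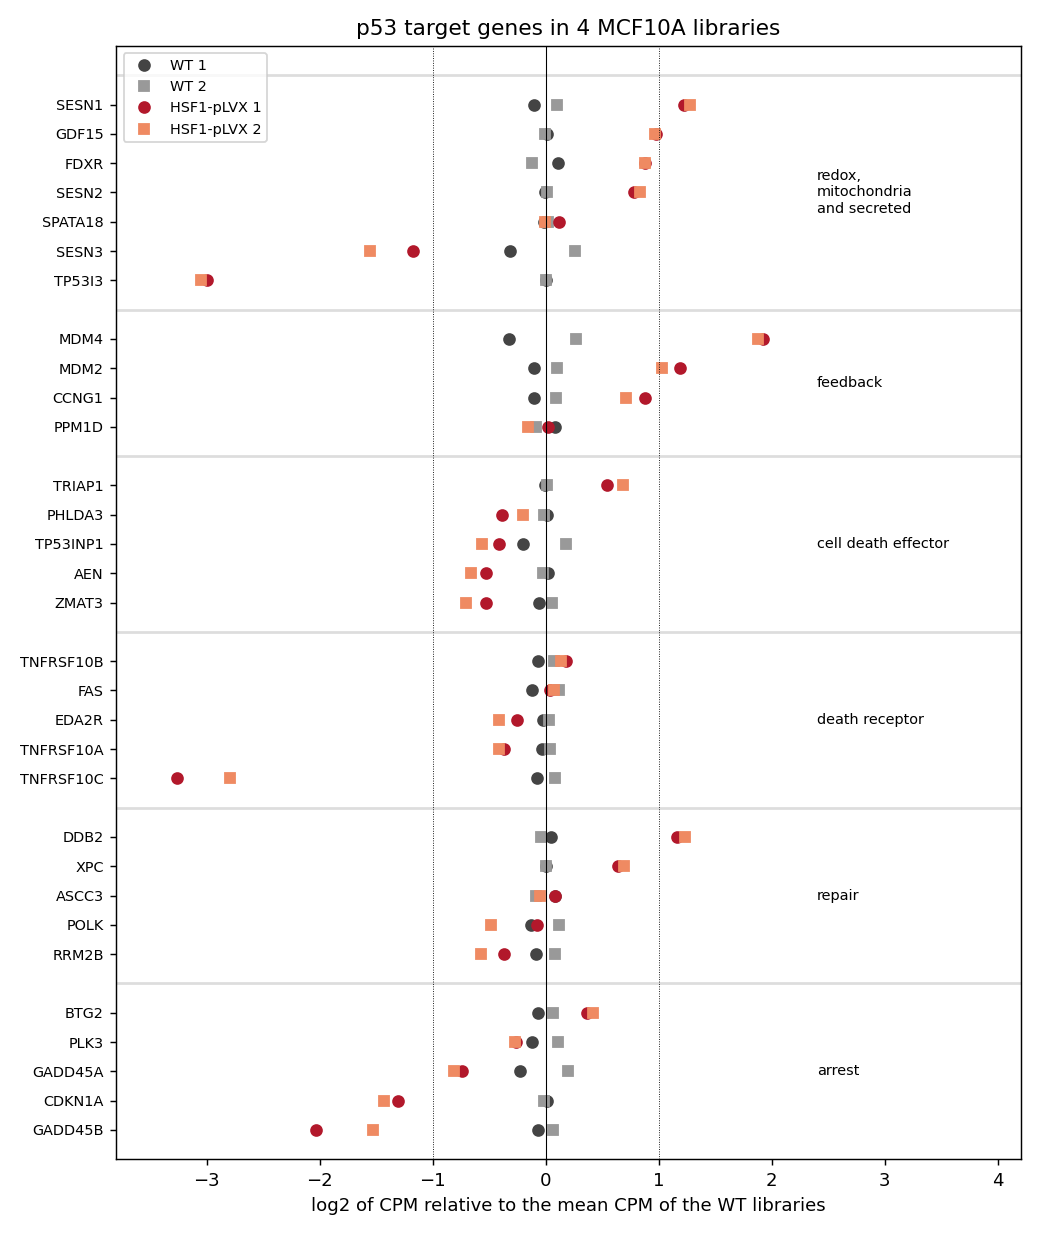
Level of each of the 31 p53 target genes in each library, as log2 of its CPM over the mean CPM of the WT libraries (x axis), with genes on the y axis grouped by role. Dark and light grey points are WT replicates 1 and 2, red and orange points HSF1-pLVX replicates 1 and 2, and dotted lines mark 2-fold. In the feedback group 3 of 4 genes lie to the right, and in the arrest group 4 of 5 lie to the left. Among all genes tested, 32.7% were called higher and 33.2% lower.

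Per length of exon, CDKN1A was the most abundant of the 31 transcripts in both groups. In WT cells it stood at 383 CPM per kb, ahead of TP53I3 at 214 and GADD45A at 107, levels that did not overlap between these genes in any WT library. In HSF1-pLVX cells CDKN1A stood at 148 CPM per kb, and the next places were taken by GDF15 at 79.8 and CCNG1 at 77.6, whose libraries overlapped, while TP53I3 was at 26.3. SESN3 was the least abundant member in both groups, at 0.238 and 0.0931 CPM per kb. The level of CDKN1A relative to MDM2, both per kb, was 22.7 and 19.4 in WT replicates 1 and 2 and 3.70 and 3.79 in the HSF1-pLVX libraries. The arrest gene and the feedback gene thus stood much closer together in every HSF1-pLVX library than in any WT library.

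**Figure D2:**
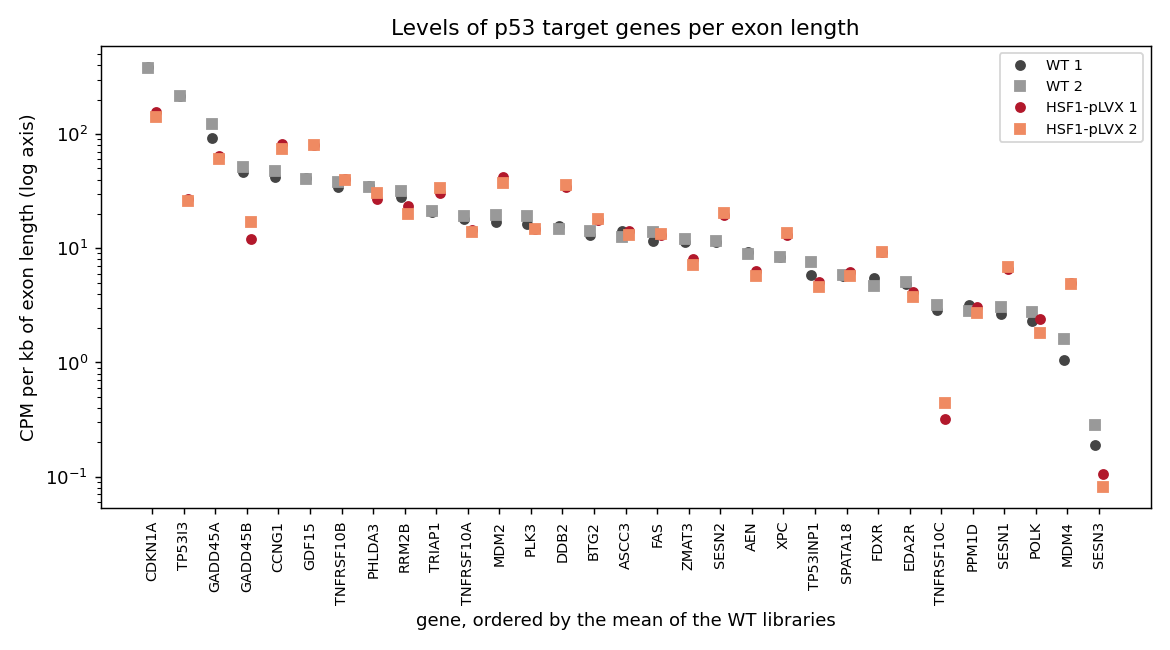
CPM per kb of exon length on a log axis (y) for the 31 genes (x), ordered by the mean of the WT libraries, with grey points for WT and red and orange points for HSF1-pLVX libraries. CDKN1A is highest in both groups, at means of 383 and 148 CPM per kb, and SESN3 lowest.

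Promoter windows from RefSeq on GRCh38.p14, running from 250 bases before to 50 bases after a transcript start, were found for 23 of the 31 genes, 35 windows in all. The p53 response element decamer was searched by its consensus of 10 letters, which reads the same on both strands. It was in 5 of the 35 member windows and in 6.63% of all 35116 windows. The 5 member windows belonged to DDB2, SESN1, FDXR, AEN and FAS. A pair of decamers with at most 13 bases between them was in 1 member window, of DDB2, and in 0.0285% of all windows. The heat shock element, taken as 3 alternating GAA and TTC units with 2 bases between them, starting with either, was in no member window and in 0.49% of all windows. The shorter inverted pair GAANNTTC or TTCNNGAA, which is part of that element, was in 2 of the 35 member windows and in 13.5% of all windows. The 2 member windows belonged to DDB2 and TP53I3. Many known p53 sites lie outside such windows, and a match is a description of letters only. The windows below show 3 members that rose and carry the decamer (DDB2, SESN1, FDXR), 1 that fell and carries it (AEN), and TP53I3, which fell 8.11-fold. Capitals mark the p53 decamers and, in TP53I3, the inverted pair, which for DDB2 lies in another of its windows.
DDB2, plus strand, chr11:47214724-47215023: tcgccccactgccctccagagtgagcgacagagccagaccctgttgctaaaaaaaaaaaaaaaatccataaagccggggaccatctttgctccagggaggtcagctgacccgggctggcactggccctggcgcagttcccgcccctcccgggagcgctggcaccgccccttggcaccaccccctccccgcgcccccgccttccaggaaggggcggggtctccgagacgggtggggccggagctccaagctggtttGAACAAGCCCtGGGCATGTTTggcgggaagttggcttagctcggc
SESN1, minus strand, chr6:109008939-109009238: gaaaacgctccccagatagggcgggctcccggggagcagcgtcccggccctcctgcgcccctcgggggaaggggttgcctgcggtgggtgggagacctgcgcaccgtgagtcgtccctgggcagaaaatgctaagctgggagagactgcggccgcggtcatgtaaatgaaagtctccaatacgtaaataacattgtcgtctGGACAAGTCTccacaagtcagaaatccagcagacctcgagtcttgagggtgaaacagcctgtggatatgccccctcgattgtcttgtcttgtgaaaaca
FDXR, minus strand, chr17:74872945-74873244: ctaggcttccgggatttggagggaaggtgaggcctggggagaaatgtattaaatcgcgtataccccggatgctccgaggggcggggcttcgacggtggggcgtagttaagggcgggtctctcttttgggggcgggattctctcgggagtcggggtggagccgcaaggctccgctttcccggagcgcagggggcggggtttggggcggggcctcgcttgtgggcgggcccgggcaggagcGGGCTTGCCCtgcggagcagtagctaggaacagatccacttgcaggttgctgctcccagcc
AEN, plus strand, chr15:88621090-88621389: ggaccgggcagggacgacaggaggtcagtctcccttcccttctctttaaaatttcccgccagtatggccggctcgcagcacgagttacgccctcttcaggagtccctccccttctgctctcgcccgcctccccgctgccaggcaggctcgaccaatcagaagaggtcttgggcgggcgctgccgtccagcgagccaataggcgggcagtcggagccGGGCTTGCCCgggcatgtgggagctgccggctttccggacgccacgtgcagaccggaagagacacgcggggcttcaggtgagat
TP53I3, minus strand, chr2:24084785-24085084: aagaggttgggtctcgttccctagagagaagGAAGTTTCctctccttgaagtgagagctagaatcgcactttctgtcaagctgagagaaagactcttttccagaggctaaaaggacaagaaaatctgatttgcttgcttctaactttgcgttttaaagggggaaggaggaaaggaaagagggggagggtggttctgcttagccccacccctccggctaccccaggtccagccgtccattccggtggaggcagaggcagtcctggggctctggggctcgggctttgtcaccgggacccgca

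The 5 arrest genes were lower with 1 exception, where 33.2% of all genes tested were called lower. CDKN1A (ENSG00000124762.13, chromosome 6, 36676460 to 36687339 of hg38), which binds and inhibits cyclin-dependent kinases, was at 1180.1 and 1159 CPM in the WT libraries and 472 and 434 CPM in the HSF1-pLVX libraries. It fell 2.58-fold, a log2 fold change of -1.37 (standard error 0.10, adjusted p = 2.78e-08, edgeR), between -1.43 and -1.30 with each library left out in turn. GADD45A and GADD45B encode small stress sensors that act on the CDK1 kinase and on p38 signalling. GADD45B was at 99.4 and 109 CPM in the WT libraries and 25.6 and 36.2 CPM in the HSF1-pLVX libraries, and its fall of 3.40-fold exceeded the spread between the HSF1-pLVX libraries, the widest such spread among the members (log2 fold change -1.76, standard error 0.13, adjusted p = 2.24e-08, edgeR). GADD45A went from 189 and 254 to 133 and 126 CPM, with a log2 fold change of -0.78 (adjusted p = 4.73e-05, edgeR). Without HSF1-pLVX replicate 2 that value was -0.73 and no longer past the threshold. PLK3, a stress-activated polo-like kinase, fell by a smaller amount, from 57.0 and 66.7 to 51.6 and 51.2 CPM, and its log2 fold change of -0.27 lost its call with library size as the only normalization (-0.21) and without HSF1-pLVX replicate 1 (-0.27), HSF1-pLVX replicate 2 (-0.25) or WT replicate 2 (-0.17). BTG2, an antiproliferative cofactor of mRNA deadenylation, was the arrest gene that rose, from 35.9 and 39.2 to 48.3 and 50.2 CPM (log2 fold change 0.39, standard error 0.089, adjusted p = 0.00133, edgeR).

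Among the repair genes, the damage recognition pair of nucleotide excision repair rose and the nucleotide supply gene fell. DDB2 (ENSG00000134574.11, chromosome 11, 47214465 to 47239240), which finds ultraviolet lesions and hands them to XPC, was at 77.2 and 72.7 CPM in the WT libraries and 168 and 176 CPM in the HSF1-pLVX libraries. The groups were far apart, at a log2 fold change of 1.20 (standard error 0.087, adjusted p = 2.52e-08, edgeR). A window of DDB2 holds the pair of p53 decamers, and a link between such letters and the level was not tested. XPC, the initiator of global genome repair, was at 40.1 and 40.1 CPM in the WT libraries and 62.2 and 64.8 CPM in the HSF1-pLVX libraries, a log2 fold change of 0.66 (adjusted p = 7.17e-06, edgeR). Of the exon bases of XPC, 30.4% are shared with other annotated genes, the antisense XPC-AS1 among them, so its reads could be split by the counting. Such shared bases were fewer in the other members that have them, among them PHLDA3 (19.1%), TNFRSF10A (16.6%), POLK (10.8%), MDM2 (9.22%) and FAS (8.93%, with ACTA2). RRM2B encodes a ribonucleotide reductase subunit that supplies nucleotides for repair. It fell from 157 and 175 to 129 and 112 CPM, with a log2 fold change of -0.46 that was no longer called without HSF1-pLVX replicate 2 (-0.36). The translesion polymerase gene POLK was at 21.0 and 25.0 CPM in WT and 21.8 and 16.5 in HSF1-pLVX cells, groups that overlap, and did not pass the test (log2 fold change -0.26). Without WT replicate 1 (-0.37) or HSF1-pLVX replicate 1 (-0.48), and with the replicate number as a block, POLK was called lower. For ASCC3, a helicase subunit used in alkylation repair, the difference was 0.020 on the log2 scale (standard error 0.094), and the WT libraries at 166 and 149 CPM overlapped the HSF1-pLVX libraries at 167 and 152.

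The death receptor group held 5 genes, a decoy among them. Of these 3 fell, where 33.2% of all genes tested were called lower, and 2 did not pass the test. Those that fell were the decoy TNFRSF10C, TNFRSF10A and EDA2R. TNFRSF10C (ENSG00000173535.13, chromosome 8, 23084355 to 23117437) encodes a decoy that binds the death ligand TRAIL without a death domain. It held 142 and 157 counts in the WT libraries against 21 and 23 in the HSF1-pLVX libraries, or 7.55 and 8.44 CPM in the WT libraries and 0.835 and 1.16 CPM in the HSF1-pLVX libraries. This was a fall of 8.10-fold (log2 fold change -3.02, standard error 0.24, adjusted p = 5.70e-08, edgeR). The TRAIL receptors that carry a death domain differed less. TNFRSF10A fell from 53.6 and 56.2 to 42.5 and 41.2 CPM (log2 fold change -0.39, adjusted p = 9.70e-04, edgeR), and TNFRSF10B, the most abundant of the receptors, was at 177 and 195 CPM in WT and 210.4 and 204 in HSF1-pLVX cells and did not pass the test (log2 fold change 0.16, standard error 0.090). The second decoy, TNFRSF10D, which is not a member, had a log2 fold change of -0.34 (adjusted p = 0.0336, edgeR). Per kb, the summed level of TNFRSF10A and TNFRSF10B over that of the decoys TNFRSF10C and TNFRSF10D was 4.22 and 3.40 in WT and 5.71 and 5.73 in HSF1-pLVX cells. The 4 TRAIL receptor genes neighbour each other on chromosome 8 and resemble each other, and the assignment of their shared reads is uncertain. FAS, the receptor of FAS ligand, was at 49.7 and 58.8 CPM in WT and 55.5 and 56.9 in HSF1-pLVX cells, overlapping groups that did not pass the test. EDA2R, a receptor of ectodysplasin, went from 17.5 and 18.2 to 15.0 and 13.4 CPM, and its call (log2 fold change -0.33) was lost with DESeq2's Wald test, with library size as the only normalization (-0.27) and without HSF1-pLVX replicate 2 (-0.24).

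Of the 5 cell death effectors among the members 4 fell, none by as much as 2-fold. Among all genes tested, 33.2% were called lower. BAX, BBC3, PMAIP1 and APAF1, cell death genes outside the 31, were called higher and are given below. ZMAT3, an RNA-binding protein that acts on splicing and mRNA stability, went from 109 and 117 to 78.2 and 69.3 CPM, a log2 fold change of -0.61 (adjusted p = 3.43e-05, edgeR). AEN, a nuclease of apoptosis, went from 55.4 and 53.8 to 37.8 and 34.4 CPM, a log2 fold change of -0.59 (adjusted p = 3.58e-05, edgeR), and its promoter window holds the p53 decamer as those of SESN1 and FDXR do. TP53INP1, which acts in apoptosis and autophagy, went from 33.3 and 43.2 to 28.8 and 25.9 CPM and had a log2 fold change of -0.48 that was -0.40 and not called without HSF1-pLVX replicate 2. PHLDA3, which competes with AKT for membrane lipids, went from 111 and 109 to 84.1 and 95.6 CPM, with a value of -0.29 that was -0.19 and not called without HSF1-pLVX replicate 1. The member of this group that rose, TRIAP1, encodes a mitochondrial protein that restrains apoptosis. It was at 30.2 and 30.6 CPM in the WT libraries and 44.2 and 48.8 CPM in the HSF1-pLVX libraries, a log2 fold change of 0.61 (standard error 0.092, adjusted p = 3.86e-05, edgeR).

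Of the 4 feedback genes 3 rose, where 32.7% of all genes tested were called higher. The median log2 fold change of the 4 was 0.95. MDM2 (ENSG00000135679.22, chromosome 12, 68808176 to 68850686) was at 227 and 260.5 CPM in the WT libraries and 555 and 498 CPM in the HSF1-pLVX libraries. It rose 2.16-fold (log2 fold change 1.11, standard error 0.10, adjusted p = 3.26e-07, edgeR), between 1.03 and 1.20 with each library left out. MDM4 (ENSG00000198625.12, chromosome 1, 204516379 to 204558120), which binds p53 and blocks its activation domain, had the highest log2 fold change of all 31 members. It was at 11.7 and 17.6 CPM in the WT libraries and 55.2 and 53.8 CPM in the HSF1-pLVX libraries, a rise of 3.73-fold (log2 fold change 1.90, standard error 0.14, adjusted p = 2.39e-08, edgeR). Its WT libraries differed more from each other than those of any other member, and the log2 fold change lay between 1.65 and 2.21 with each library left out. CCNG1, cyclin G1, which directs a phosphatase to MDM2, rose from 129 and 148 to 254 and 227 CPM (log2 fold change 0.80, adjusted p = 6.16e-06, edgeR). PPM1D, the phosphatase WIP1 that reverses damage signalling, was at 16.1 and 14.2 CPM in WT and 15.4 and 13.6 in HSF1-pLVX cells, groups that overlap, with a log2 fold change of -0.059 and a standard error of 0.12. Gene counts do not separate the transcripts that start at the p53-dependent promoter of MDM2 from those of its other promoter, nor full-length from short MDM4.

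In the remaining group of 7 genes 4 rose and 2 fell, where 32.7% and 33.2% of all genes tested were called. TP53I3 was among those that fell, with a log2 fold change close to that of TNFRSF10C. TP53I3 (ENSG00000115129.13, chromosome 2, 24077433 to 24085861), a quinone oxidoreductase, was at 494 and 494 CPM in the WT libraries and 62.1 and 59.7 CPM in the HSF1-pLVX libraries. The libraries within each group were close together, and the fall was 8.11-fold, a log2 fold change of -3.02 (standard error 0.10, adjusted p = 1.01e-11, edgeR). The sestrins, which restrain mTORC1 when amino acids are short and protect against oxidants, did not move alike. SESN1 (ENSG00000080546.13, chromosome 6, 108986437 to 109094819) was at 13.5 and 15.5 CPM in the WT libraries and 33.8 and 35.1 CPM in the HSF1-pLVX libraries, a log2 fold change of 1.25 (standard error 0.11, adjusted p = 1.16e-07, edgeR). SESN2 went from 39.2 and 39.8 to 67.8 and 70.5 CPM, a log2 fold change of 0.81 (adjusted p = 9.65e-07, edgeR). SESN3 held 38 and 56 counts in WT and 28 and 17 in HSF1-pLVX cells, or 2.02 and 3.01 and 1.11 and 0.854 CPM, and had a log2 fold change of -1.33 (standard error 0.31, adjusted p = 0.00169, edgeR), which was -1.16 and not called without HSF1-pLVX replicate 2. FDXR, the mitochondrial ferredoxin reductase, rose from 19.6 and 16.7 to 33.4 and 33.4 CPM (log2 fold change 0.88, adjusted p = 3.75e-06, edgeR). GDF15 (ENSG00000130513.6, chromosome 19, 18374731 to 18389176), a secreted stress signal of the TGF-beta superfamily, was at 85.9 and 84.6 CPM in the WT libraries and 167 and 166 CPM in the HSF1-pLVX libraries and rose 1.96-fold (log2 fold change 0.97, standard error 0.085, adjusted p = 1.70e-07, edgeR). SPATA18, a gene of mitochondrial quality control, was at 28.0 and 28.7 CPM in WT and 30.9 and 28.2 in HSF1-pLVX cells, groups that overlap, and did not pass the test.

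**Figure D3:**
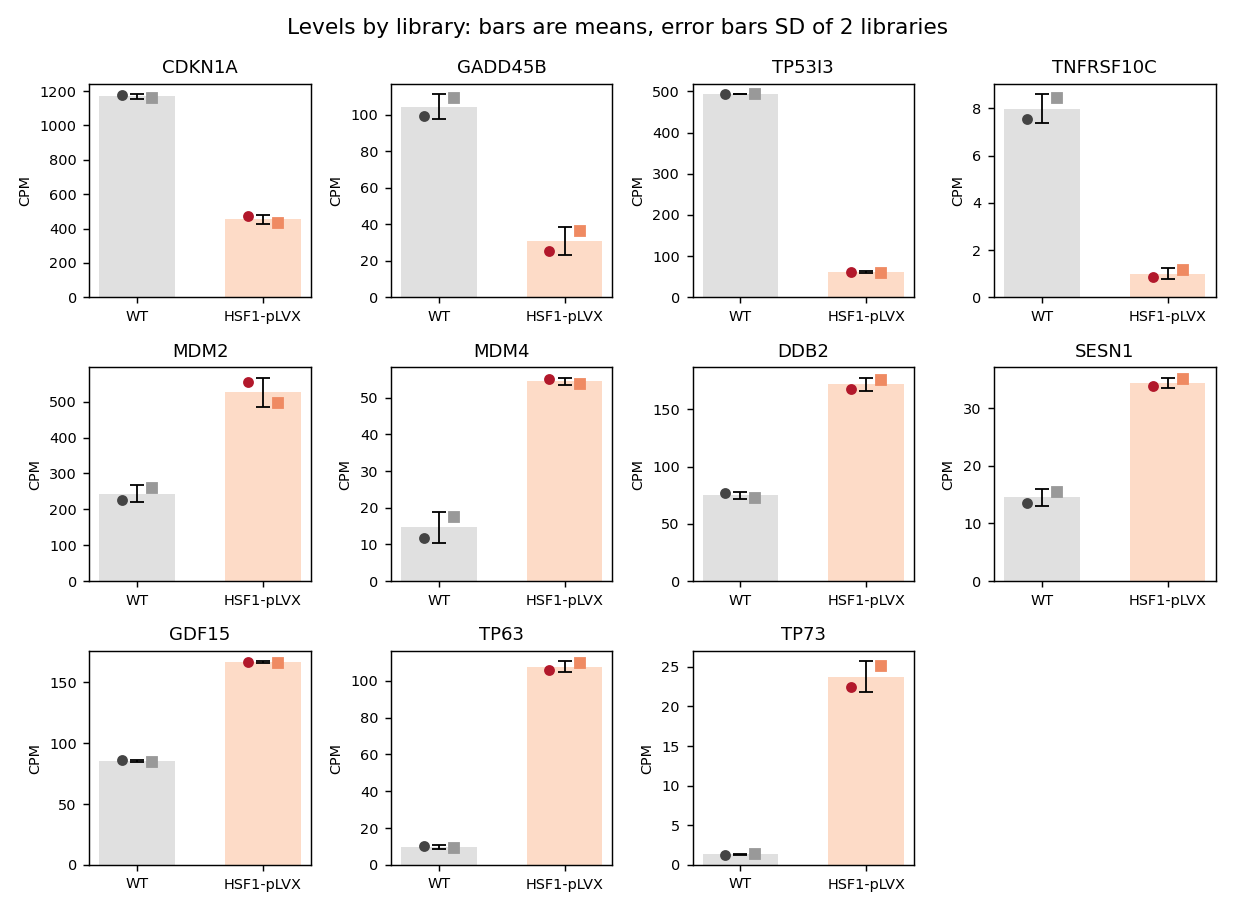
CPM (y axes, each from 0) of 9 p53 target genes and of the p53 relatives TP63 and TP73 in WT and HSF1-pLVX cells (x axes). Bars are means, error bars the SD of 2 libraries, and circles and squares replicates 1 and 2. The panels are a selection of called genes. The groups do not overlap in any of the 11 panels, nor do they for 83.1% of all genes tested. CDKN1A, GADD45B, TP53I3 and TNFRSF10C are lower in HSF1-pLVX cells whereas the other 7 genes are higher.

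Transcripts of both p53 relatives were higher. TP63, the basal epithelial relative, rose from 10.4 and 8.97 to 106 and 109.7 CPM, a log2 fold change of 3.48 (standard error 0.10, adjusted p = 5.08e-12, edgeR). TP73 rose from 1.22 and 1.40 to 22.4 and 25.1 CPM, a log2 fold change of 4.17 (standard error 0.17, adjusted p = 7.75e-11, edgeR). Gene counts do not separate the forms of TP63 and TP73 that carry an activation domain from those that lack it.

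Of 22 genes, the p53 relatives and the upstream regulators, 21 were tested, with 8 higher, 4 lower and a median log2 fold change of 0.13. Among all genes tested, 32.7% were called higher and 33.2% lower. The damage kinases ATM and CHEK2, which phosphorylate p53, rose by log2 fold changes of 1.67 and 2.23. The damage kinase ATR did not pass the test (log2 fold change 0.11). The 4 lower genes were TP53BP2, HIPK2, SIRT1 and KAT5, with log2 fold changes of -1.12, -0.55, -0.32 and -0.31. NPM1, RPL5 and RPL11, nucleolar and ribosomal proteins that can bind MDM2 or ARF, rose by 1.46, 1.15 and 1.10. CDKN2A held 0 counts in all 4 libraries, which allows at most 3 counts per library or between 0.119 and 0.161 CPM, counting error only. Of 37 further genes that p53 is known to induce, 36 were tested, with 19 higher, 15 lower and a median of 0.25. The shares of all genes tested were again 32.7% and 33.2%. PLK2, ATF3 and BTG1 fell, by log2 fold changes of -2.20, -2.04 and -1.32, and CD82, a tetraspanin that limits migration, rose by 1.88. The 3 most abundant of these genes, the epithelial genes PERP, SFN and SERPINB5, fell, with log2 fold changes of -1.05, -0.28 and -0.79. SFN was not called with the replicate number as a block. The list also holds the cell death genes BAX, BBC3, PMAIP1 and APAF1, which rose, by log2 fold changes of 0.30, 0.44, 0.41 and 0.54.

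The cell cycle genes that p53 is known to lower through CDKN1A moved together. All 20 were called higher and by at least 2-fold, where 32.7% and 14.9% of all genes tested were. Their log2 fold changes lay between 1.09 and 2.60, with a median of 1.90. For each of them the HSF1-pLVX libraries lay above the WT libraries, as for 42.1% of all genes tested. TOP2A, which untangles DNA, went from 32.8 and 26.8 to 199 and 163 CPM (log2 fold change 2.60, adjusted p = 2.55e-10, edgeR). The mitotic kinase genes CDK1 and AURKB and the kinetochore gene CENPF had log2 fold changes of 2.31, 2.17 and 2.31, and MKI67, the proliferation marker, and MCM5, a subunit of the replicative helicase, had values of 1.93 and 1.85. The ATF4 and CHOP stress response also acts on GDF15, SESN2 and TNFRSF10B. Of the 7 genes listed for it, 5 were higher and 1 lower, where 32.7% and 33.2% of all genes tested were called. The median of the 7 was 1.16. DDIT4, ASNS, TRIB3 and ATF4 rose by 2.93, 2.46, 1.21 and 1.16, whereas PPP1R15A fell (log2 fold change -1.48) and DDIT3, encoding CHOP itself, was at 9.89 and 9.08 CPM in WT and 9.54 and 7.99 in HSF1-pLVX cells and did not pass the test. By crystal violet staining, the study found no effect of HSF1 overexpression on the proliferation of MCF10A cells. Its pathway test of the RNA-seq data listed DNA replication among the pathways enriched in the up-regulated genes. The part of CDKN1A in the values of the 20 cell cycle genes was not tested. Nor was that of proliferation or of ATF4 in the values of the 31 genes.

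**Figure D4:**
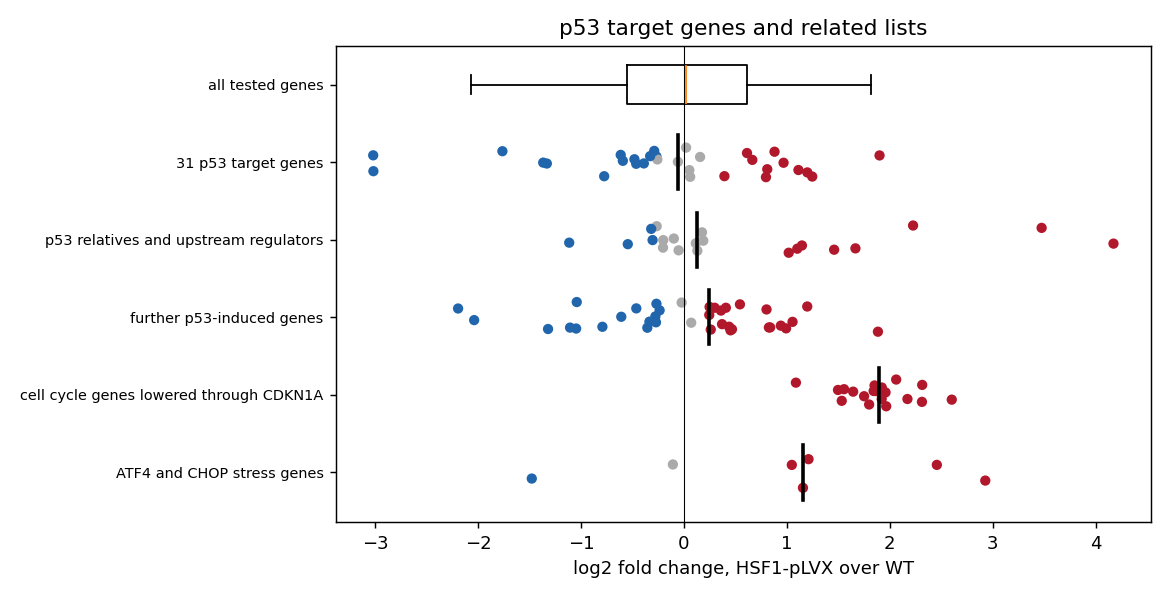
Log2 fold change of HSF1-pLVX over WT (x axis) for the 31 p53 target genes and 4 related lists (y axis), with points for tested genes in red (called higher), blue (called lower) or grey (not called) and a black bar at the median. The box shows the quartiles and the whiskers the 5th and 95th percentiles of all genes tested, and the cell cycle genes are the list that lies wholly above 1.

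The study's own rule was also applied. The deposited normalized values are log2-like, and the study asked for replicates that both gave a ratio over 2 or under 0.5, taken here within each replicate number, which 5.00% and 6.42% of all 22321 rows passed. Upwards the rule was passed by 3 members, DDB2, MDM4 and SESN1, and downwards by 4, CDKN1A, GADD45B, TNFRSF10C and TP53I3. MDM2 and SESN3, called at least 2-fold changed from the counts, missed it in 1 of the 2 replicate numbers.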

How the data were processed

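RNA-seq libraries of MCF10A cells, 2 WT and 2 HSF1-pLVX, were grouped by their labels. The authors deposited raw counts per gene, from paired-end reads of total RNA depleted of ribosomal RNA, aligned to hg38 with HISAT2 2.0.5, processed with SAMtools 1.13 and counted with featureCounts 1.6.5, per the labels and the methods. GENCODE release 26 is the annotation that the deposited table names. Strand, overlap and multi-mapping settings are not given in the sources used here. The deposited second table holds log2-like values normalized by the authors with DESeq2 1.32.0, which entered the ratio rule alone. Symbols came from GENCODE release 44 by Ensembl identifier.

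The main test of the counts was that of edgeR 4.0.16, run in R 4.3.3 (TMM, filterByExpr, quasi-likelihood test without the replicate block, Benjamini-Hochberg adjustment over 15830 genes, threshold 0.05). Standard errors are the absolute log2 fold change over the root of the F statistic. The fit had 2 residual and 11.9 prior degrees of freedom. CPM per kb divides by the exon length of the count table. Replicate pairs differed by more than sampling noise (chi-square per degree of freedom 4.39 for WT and 5.30 for HSF1-pLVX), and the methods call them biological replicates without saying that they are separate cultures, so p-values measure the spread between these libraries. The alternatives were DESeq2 1.42.0 (Wald test and size factors), limma 3.58.1 (voom), library size only, no filter, the replicate block and each library left out. Counts were simulated for HSF1-pLVX against WT (about 15395 genes, 200 changed, 3 draws). On them the test recovered 81.2% of changes of 1 and 98.4% of changes of 2 on the log2 scale, and 6.74% of its calls were false. In the data 65.9% of the genes tested were called, a far larger share than was changed in the simulation. These rates may therefore not carry over to the data. The named genes are all 31 members, TP63 and TP73, and in each related list the 4 largest called changes and the called genes among the 3 most abundant. TNFRSF10D, CDKN2A, DDIT3, TRIM22, the marker genes, the paralogs and the noncoding RNAs fall outside this rule and were named after their values were seen. So were BAX, BBC3, PMAIP1, APAF1, ATR, TP53BP2, HIPK2, SIRT1 and KAT5. Members and lists were chosen with earlier results of these data known. A result on an item withheld for evaluation is not reported here. Of 31 members, 11 share exon bases with another annotated gene.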

Additional observations from a re-analysis of the deposited data

How the results depend on the processing

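The number of p53 target genes called higher was 11 under every alternative and with each library left out, and the number called lower lay between 12 and 15 with all libraries and between 8 and 15 with each library left out, the 8 without HSF1-pLVX replicate 2. Their median log2 fold change changed sign with library size as the only normalization (0.0029) and without HSF1-pLVX replicate 2, and lay between -0.15 and 0.032 over the libraries left out. With a library left out, 1 group rests on 1 library, assumed to vary like the other group, and all genes called numbered between 3783 and 4923 upwards and between 3846 and 4962 downwards. At least 2-fold changes numbered between 3 and 5 upwards and 4 and 5 downwards. Over single members, 318 values kept direction and call, 12 lost the call, 4 gained it and 7, of members without a call, changed sign. These were PPM1D with library size only (0.0029) and, with each library left out, PPM1D (between -0.16 and 0.044), FAS (between -0.050 and 0.16), ASCC3 (between -0.076 and 0.12) and SPATA18 (between -0.0025 and 0.13).

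The sources used here do not say whether same-numbered libraries share a culture or a day. Deviations of same-numbered libraries from their group mean correlated at -0.015 over the 15830 genes tested and -0.11 over the 9667 above 8 CPM. Such a correlation cannot show that nothing is shared. With the replicate number as a block, 11 members were called higher and 15 lower, and 5138 and 5171 of all genes, POLK being the added call. SFN and TRIM22, of the further p53-induced genes, were called without the block (adjusted p = 0.0262 and 0.0254, edgeR's quasi-likelihood test) and not with it (0.101 and 0.0522). With the crossed pairing, added after seeing the data, 5429 and 5487 of all genes were called.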

Other observations

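Paralogs of the p53 target genes and noncoding RNAs that p53 induces were looked up with the results for the 31 genes known. Of 17 paralogs 14 were tested, with 6 higher, 5 lower and a median log2 fold change of 0.067. Among all genes tested, 32.7% were called higher and 33.2% lower. The paralog with the lowest log2 fold change was TP53INP2, an autophagy and nuclear co-regulator gene, which went from 96.0 and 93.2 to 7.75 and 6.94 CPM (log2 fold change -3.68, standard error 0.10, adjusted p = 3.44e-12, edgeR), while TP53INP1 had one of -0.48. CCNG2, cyclin G2, had a log2 fold change of -1.36 where CCNG1 had one of 0.80, and BTG1 had one of -1.32 where BTG2 had one of 0.39. PHLDA1 rose by 1.05 where PHLDA3 fell, and RRM2, the ribonucleotide reductase subunit of S phase, rose by 1.15 where RRM2B fell. CDKN1B, encoding the inhibitor p27, was at 14.7 and 14.8 CPM in WT and 15.7 and 15.9 in HSF1-pLVX cells and did not pass the test (log2 fold change 0.10, standard error 0.11), and GADD45G held between 11 and 23 counts per library. The differences between paralogs were not tested.

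Of 8 noncoding RNAs 5 were tested. MIR34AHG, the host transcript of the p53-induced miR-34a, went from 7.66 and 9.46 to 16.1 and 14.1 CPM (log2 fold change 0.83, adjusted p = 1.26e-04, edgeR), NEAT1, the scaffold of paraspeckles, from 1534 and 1233 to 2471 and 2626 CPM (log2 fold change 0.88, adjusted p = 1.80e-05, edgeR), and PURPL from 0.851 and 0.699 to 1.63 and 1.46 CPM (log2 fold change 0.99, standard error 0.32). TP53TG1 fell, with a log2 fold change of -0.52, and LINC-PINT did not pass the test. PANDAR held 0 counts in all 4 libraries, and TP53COR1 and DINOL were not matched to an identifier.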
